A study of Mus musculus with 18 samples.

Results

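The genes of the mouse major histocompatibility complex (MHC, named H2 in the mouse) were followed together with the genes that load and switch on MHC molecules. Members were every gene whose symbol begins with H2- (47 genes), together with B2m, Tap1, Tap2, Tapbp, Nlrc5, Ciita and Cd74, giving 54 of the 28442 genes in the table. Bulk poly-A RNA was measured in 12 advanced tumors and 6 non-tumoral livers of male Alb-R26Met mice, in which Cre recombinase driven by the Alb promoter, active in hepatocytes, switches on a mouse-human chimeric Met receptor transgene at the Rosa26 locus. The livers came from mice that carried both alleles and had not developed tumors, so the Met transgene is common to both groups. The mice were adults, most of them over a year old, from a cross between 129S2/SvPasOrlRj and C57BL/6JRj parents. There were 17 animals for the 18 samples, because 1 mouse gave both tumor 11 and tumor 12.

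MHC class I molecules are found on almost all nucleated cells and show peptides from inside the cell to CD8 T cells. Each holds a heavy chain, paired with β2-microglobulin, and receives its peptide in the endoplasmic reticulum through the TAP transporter and the chaperone tapasin. MHC class II molecules show peptides from engulfed material to CD4 T cells and are made mainly by dendritic cells, B cells and macrophages, which in liver include the Kupffer cells. NLRC5 and CIITA are the transactivators of the class I and the class II genes, and interferon-γ raises both. In mice the class Ia heavy chains (H2-K, H2-D and, in some haplotypes, H2-L) are the classical presenting molecules, and the class Ib genes of the Q, T and M regions encode less variable relatives with varied roles.

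The deposited values were read as TPM (transcript abundance corrected for transcript length and set to a common total) rounded to whole numbers. The study's methods state TPM, and the totals were nearly the same in every sample. Near-equal totals do not show the length correction, on which comparisons between genes depend. The number of reads behind a value is unknown, and low genes move in steps of 1. Levels below are scaled TPM, that is, the deposited value divided by a factor computed per sample, and differences are log2(scaled TPM + 1) in tumors minus livers, tested with limma over 11708 genes. The row of Siglece held 17.9% to 29.5% of the total in livers and 21.5% to 53.4% in 11 tumors, but 82.9% in tumor 2, where 1 deposited unit therefore stood for 5.16 scaled units. Values of tumor 2 are coarse for this reason, and it gave the highest scaled level of 5 of the 9 Q region genes. Sample names carry a tag, E19 or E20, whose meaning is not stated (2 livers and 7 tumors with E19, 4 livers and 5 tumors with E20). Hepatocyte transcripts were abundant in both groups, with Alb, the albumin gene, at 20433 to 26512 in livers and 20006 to 44509 in tumors.

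A gene was tested if it reached 1 scaled TPM in 6 or more samples, which H2-Q2 and H2-T-ps did through the tumors alone. Of the 54 members, 16 were listed at 0 in every sample and 6 more were too low to test, leaving 32. Among these, 12 rose in tumors at an adjusted p under 0.05 and 0 fell, whereas 9.7% of all genes tested were higher and 9.28% were lower at this threshold. At an unadjusted p under 0.05 there were 21 members, all of them higher in tumors, against 14.3% of all genes tested higher (31.2% in either direction). The median difference over the 32 members was 0.73, and over all genes tested it was -0.07. The genes that rose lay mostly in the Q region, with 8 of its 9 members, and in the T region, with 3 of 6 tested. Tap1 was the only other one, and none of the 3 class Ia, 2 M region, 3 class II chain, 3 class II loading and 2 transactivator genes tested passed. With 1 sample left out, the number of members that rose was between 8 and 19. Without liver 4 it was 8 (957 of 11545 genes higher), with H2-Q4, H2-Q6, H2-Q8 and H2-T23 lost. Without tumor 2, 13 members rose (14.6% of all genes). Without liver 5, which had the highest level of all 6 class II genes tested among livers, 19 rose (9.06% of all genes), the additional ones being B2m, Cd74, H2-Aa, H2-Ab1, H2-Bl, H2-Eb1 and H2-K1. Within tag E19 alone 2 of 27 tested rose (H2-Q1 and H2-Q2), a share near the 7.73% of all genes there, and within E20 alone 6 of 26 rose (2.8% of all genes). A test of whether the tumor-liver difference of a gene differed between the tags called 0 of 11708 genes (348 at an unadjusted p under 0.05) and 0 of the 32 members (0 unadjusted).

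**Figure D1:**
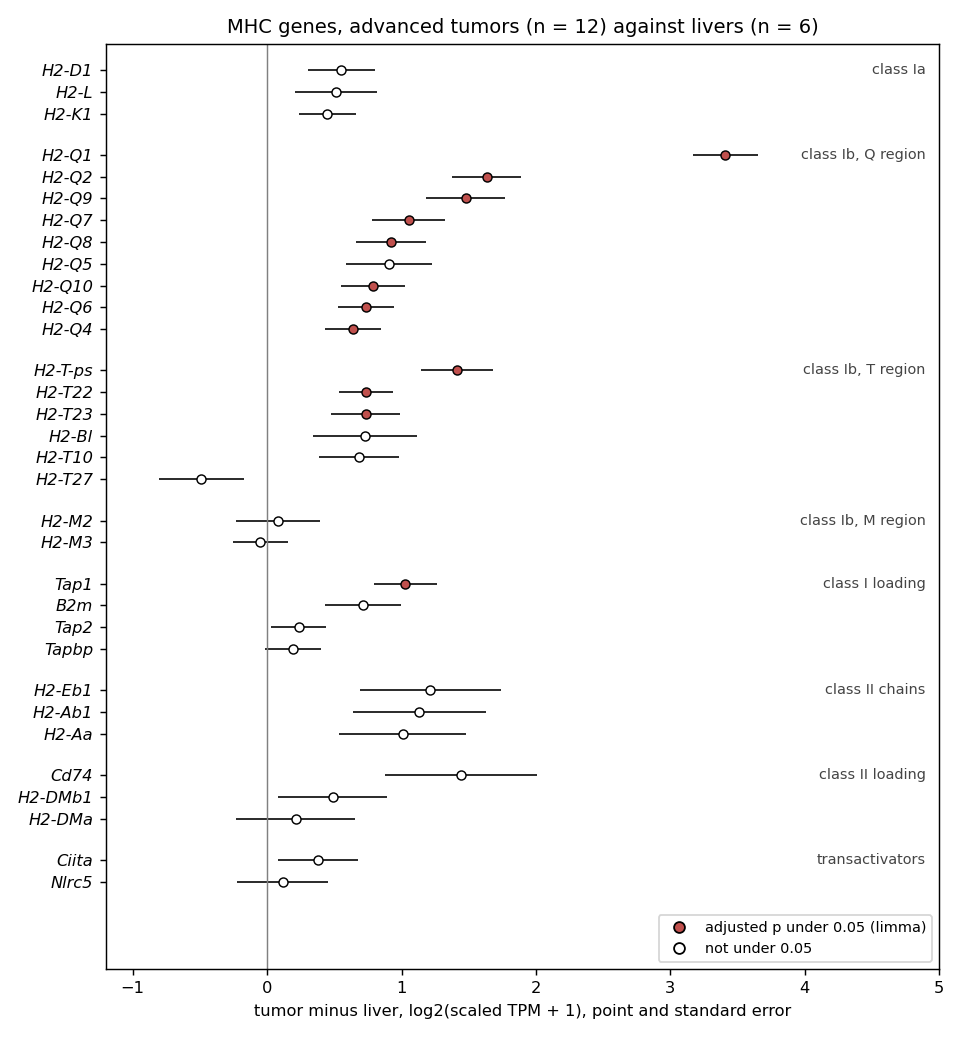
Difference between tumors (n = 12) and livers (n = 6) for the 32 MHC members tested, in log2(scaled TPM + 1), with bars of 1 standard error and the genes grouped by role. Filled points have a limma adjusted p under 0.05; H2-Q1 stands at 3.41, and the other filled points lie between 0.64 and 1.63; H2-T-ps was listed at 0 in all livers, so its position depends on the added 1.

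H2-Q1, a class Ib heavy chain gene of the Q region (Entrez 15006, GRCm38, chr17:35320525-35328142), separated the groups fully. Livers ranged from 1.12 to 3.02 scaled TPM with a median of 1.73, and tumors from 11.3 to 46.9 with a median of 30.3. The lowest tumor was tumor 8 and the highest was tumor 3, and all 12 tumors lay above every liver, as was true of 2.16% of all genes tested (1.01% lay wholly below). The difference was 3.41 on the log2 scale (SE 0.24, limma adjusted p = 3.68e-09), rank 11 by p and rank 31 by size of rise among the 11708 genes tested. It was 3.57 within E19, 3.17 within E20 and 3.51 without tumor 2. In deposited units, with no scaling, tumor 2 held the lowest tumor value (4) and was still above the highest liver (3). Of the 100-base stretches in H2-Q1 transcripts of GENCODE M21, 8.05% also occur in another gene, most often H2-Q2.

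H2-Q2, which lies further along chromosome 17 (chr17:35342307-35346764), was near the limit of the table. Livers lay between 0 and 0.79 with a median of 0, and tumors between 0.70 and 5.16 with a median of 3.29. All but 1 tumor exceeded every liver, and the difference was 1.63 (SE 0.26, limma adjusted p = 1.43e-04). This value understates the ratio because of the added 1. Of the 100-base stretches of H2-Q2, 5.09% also occur in H2-Q1, so how reads were split between the 2 genes is uncertain.

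The Qa-2 genes lie further along the same cluster. Qa-2 is a class Ib molecule encoded by H2-Q6 to H2-Q9, made in a membrane-bound and a soluble form. For H2-Q9, livers ran from 4.03 to 33.6 (median 12.2) and tumors from 19.7 to 56.7 (median 33.1). The 2 ranges overlapped, with 5 tumors above every liver, and the difference was 1.48 (SE 0.29, limma adjusted p = 0.00122). For H2-Q7, livers lay between 20.5 and 48.2 (median 24) and tumors between 28.2 and 129 (median 56.4), a difference of 1.05 (SE 0.27, limma adjusted p = 0.00889). Liver 5 was the highest liver for both genes, and 7 tumors exceeded every liver for H2-Q7. H2-Q8 went from a median of 3.46 in livers to 7.70 in tumors (difference 0.92, SE 0.26, limma adjusted p = 0.0152), and H2-Q6 from 2.99 to 6.53 (difference 0.73, SE 0.21, limma adjusted p = 0.0160). Of 33 other settings tried, H2-Q6 did not pass in 6, H2-Q8 in 5, H2-Q7 in 2 and H2-Q9 in 1. These genes resemble each other closely. Of the 100-base stretches of H2-Q7, 12.0% also occur in another gene, and of H2-Q6, 10.8%; H2-Q7 and H2-Q9 share 1 Ensembl identifier, so how reads were split among them is uncertain.

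H2-Q10 encodes a class I molecule that lacks a membrane anchor and is secreted into blood, mainly by hepatocytes. It was the most abundant of all heavy chain genes, at 419 to 1182 in livers (median 737) and 704 to 2098 in tumors (median 1317). There were 7 tumors above every liver, and the difference was 0.79 (SE 0.24, limma adjusted p = 0.0230). The highest was tumor 2, whose deposited value of 407 was below every liver (567 to 1055), so its place rests on its scaling factor. H2-Q10 did not pass in 4 of the 33 other settings. H2-Q4 was narrow in livers, 15.8 to 21.3 (median 18.6), and broad in tumors, 18.9 to 56.7 (median 29.3). Although 10 tumors exceeded every liver, the difference was only 0.64 (SE 0.21, limma adjusted p = 0.0345). The highest was again tumor 2, at 11 deposited units against 19 to 25 in livers. H2-Q4 did not pass in 10 of the 33 other settings. H2-Q5, annotated as a transcribed pseudogene, had medians of 7.89 in livers and 15 in tumors and did not pass (difference 0.91, SE 0.32, limma adjusted p = 0.0526). It passed in 11 of the 33 other settings, among them the 2 tumors of 1 mouse averaged (limma adjusted p = 0.0486).

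**Figure D2:**
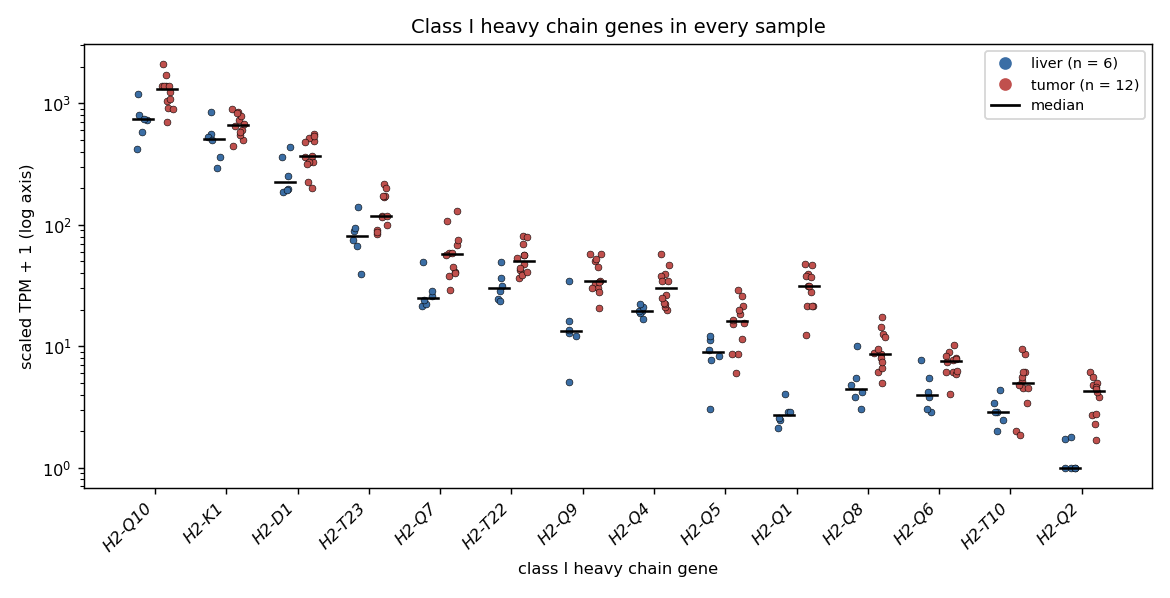
Scaled TPM + 1 on a log axis for 14 class I heavy chain genes in each of 6 livers and 12 tumors, with a line at each median. H2-Q1 is the gene whose tumor points (11.3 to 46.9 scaled TPM) stand clear of all liver points (up to 3.02), while H2-K1 and H2-D1 overlap between the groups.

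In the T region, H2-T23 encodes Qa-1, the molecule that shows leader peptides of other class I chains to the CD94-NKG2A receptor of natural killer cells. It lay between 38.4 and 138 in livers (median 80.5) and between 82.2 and 217 in tumors (median 117). The highest was tumor 2, whose deposited value of 42 was below every liver (52 to 123). Only 5 tumors exceeded every liver, and the difference of 0.73 passed narrowly (SE 0.25, limma adjusted p = 0.0479); it did not pass in 20 of the 33 other settings tried, the 2 tumors of 1 mouse averaged included (limma adjusted p = 0.0544). H2-T22, whose product is bound by some γδ T cells, went from 22.4 to 48.2 (median 29.0) in livers to 35.2 to 80.1 (median 49.2) in tumors. The difference was 0.74 (SE 0.20, limma adjusted p = 0.0127), with 6 tumors above every liver. H2-T10, its close relative, is known as another γδ T cell ligand but is annotated here as a transcribed pseudogene. It had medians of 1.87 and 4.01 and did not pass (difference 0.69, limma adjusted p = 0.116). H2-T22 shares 6.92% of its 100-base stretches with H2-T10. H2-T-ps was listed at 0 in all 6 livers and reached 5.16 in tumors (median 1.73), with 11 tumors above 0 (limma adjusted p = 7.94e-04). No fold is given against a group at 0. Of the 100-base stretches of H2-T-ps, 5.37% also occur in another gene, most often H2-Q1 (4.96%). How reads were split between H2-T-ps and H2-Q1 was not tested. H2-Bl, also annotated as a transcribed pseudogene (difference 0.73, limma adjusted p = 0.210), and H2-T27 (difference -0.49, limma adjusted p = 0.313) did not pass. In the RefSeq annotation H2-T-ps and H2-T10 both overlap the pseudogene BC023719, and H2-T22 and H2-T23 overlap the long noncoding RNA A930015D03Rik.

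The class Ia genes were abundant in every sample. H2-K1 ranged from 292 to 839 in livers (median 508) and from 441 to 905 in tumors (median 662), a difference of 0.45 (SE 0.21, limma adjusted p = 0.157). H2-D1 ranged from 186 to 432 in livers (median 222) and from 200 to 561 in tumors (median 365), a difference of 0.55 (SE 0.25, limma adjusted p = 0.128). The groups overlapped for both genes, with 2 and 5 tumors above every liver. The difference between the class Ia and the Q region responses was not tested. H2-L reached at most 5.16 (difference 0.51, limma adjusted p = 0.274). The M region was near the lower limit of the table: 9 of its 12 genes were listed at 0 in every sample and H2-M5 reached 1 deposited unit in a single sample. H2-M2 (difference 0.08, limma adjusted p = 0.891) and H2-M3, which presents N-formylated peptides (difference -0.05, limma adjusted p = 0.903), were at medians near 1 in both groups.

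Within each sample, H2-Q10 and the class Ia genes made up most of the class I heavy chain signal. H2-Q10 held 39.8% to 45.4% of the summed heavy chain TPM in livers (median 43.4%) and 36.5% to 53.8% in tumors (median 47.8%), above every liver in 7 tumors and below every liver in 2. H2-K1 held 21.8% to 34.0% in livers (median 30.4%) and 18.5% to 30.3% in tumors (median 24.2%). H2-Q1 held at most 0.183% in livers and between 0.529% and 2.21% in tumors, with no overlap. The Q region genes other than H2-Q10 and H2-Q1 took a median of 4.38% in livers and 5.71% in tumors, and the T region genes 7.19% and 7.29%. These shares do not depend on the scaling between samples and are given as a description.

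**Figure D3:**
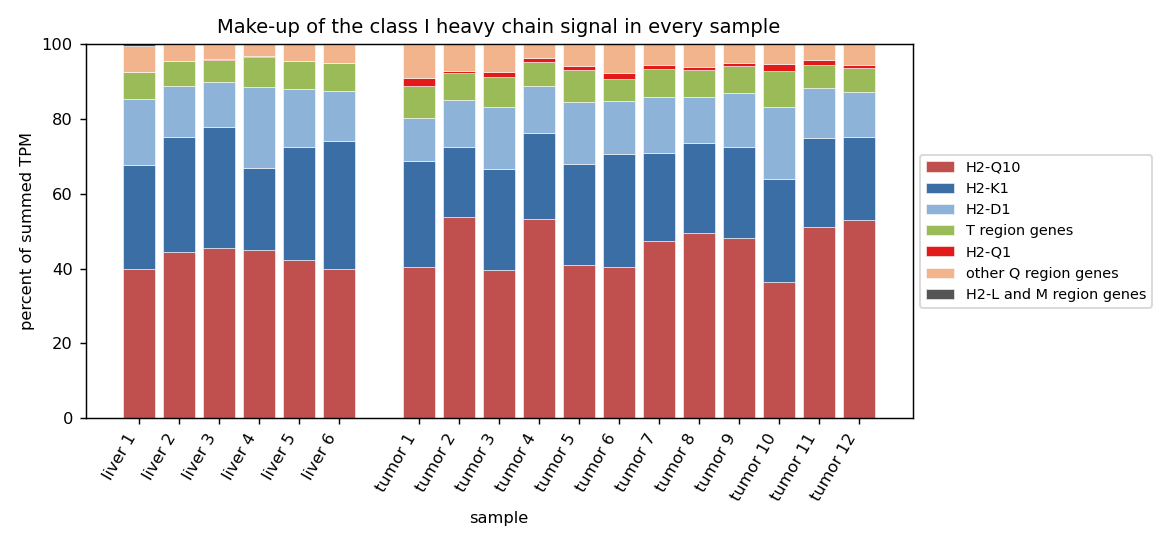
Percent of the summed class I heavy chain TPM that each gene or gene group held in every liver and tumor, from the deposited values. H2-Q10 is the largest part in every sample (36.5% to 53.8% in tumors).

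The start regions of members hold short motifs known from MHC gene control. Class I promoters carry a site for NF-κB beside an interferon-stimulated response element (ISRE), and class II promoters carry an X box followed by a Y box. RefSeq (GRCm38.p6) gave the bases before the start of 34 members. In the 250 bases before the start, both strands were searched for the NF-κB core GGGATTCCC, found in 0.352% of 27025 genes, and for the ISRE core TTTCACTT, found in 1.62%. The X box core GCAAC followed on the gene's strand by the Y box core ATTGG, starting 20 to 40 bases further on, was found in 0.537% of genes. Of the 12 tested class I heavy chain genes with such a region, 4 held the NF-κB core and 8 the ISRE core, and of the 4 tested class II genes, 2 held the X and Y pair. The cores lay 11 bases apart in H2-D1, H2-K1 and H2-Q6, and 10 in H2-Q7. These regions of 6 genes are printed 5′ to 3′ to show how genes that rose (H2-Q6, H2-Q10, H2-Q2) compare with 1 that did not pass (H2-D1), and the pair of class II genes with X and Y boxes. Capitals mark the motifs found. H2-D1 is at chr17:35262844-35263093 (plus strand), H2-Q6 at chr17:35424600-35424849 (plus), H2-Q10 at chr17:35469839-35470088 (plus), H2-Q2 at chr17:35342057-35342306 (plus), H2-Aa at chr17:34287824-34288073 (minus) and H2-Eb1 at chr17:34305617-34305866 (plus).
H2-D1: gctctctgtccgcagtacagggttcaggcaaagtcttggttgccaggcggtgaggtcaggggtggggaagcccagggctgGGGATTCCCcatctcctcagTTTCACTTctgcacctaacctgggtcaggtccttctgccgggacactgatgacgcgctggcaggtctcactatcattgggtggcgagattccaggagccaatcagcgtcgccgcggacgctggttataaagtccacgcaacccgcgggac
H2-Q6: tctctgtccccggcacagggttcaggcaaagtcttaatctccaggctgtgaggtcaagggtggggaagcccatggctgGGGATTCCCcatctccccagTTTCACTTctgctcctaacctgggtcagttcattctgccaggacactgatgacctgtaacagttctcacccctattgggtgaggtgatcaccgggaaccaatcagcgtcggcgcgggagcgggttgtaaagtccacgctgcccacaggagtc
H2-Q10: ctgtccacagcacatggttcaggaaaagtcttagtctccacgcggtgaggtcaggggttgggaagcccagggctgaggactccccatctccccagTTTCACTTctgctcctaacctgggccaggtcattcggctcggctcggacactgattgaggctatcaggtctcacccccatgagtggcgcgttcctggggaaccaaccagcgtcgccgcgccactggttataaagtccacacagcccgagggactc
H2-Q2: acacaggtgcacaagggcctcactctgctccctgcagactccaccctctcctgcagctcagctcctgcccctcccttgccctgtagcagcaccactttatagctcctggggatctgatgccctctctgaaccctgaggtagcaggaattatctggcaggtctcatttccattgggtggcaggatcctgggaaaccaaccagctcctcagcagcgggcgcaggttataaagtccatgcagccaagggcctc
H2-Aa: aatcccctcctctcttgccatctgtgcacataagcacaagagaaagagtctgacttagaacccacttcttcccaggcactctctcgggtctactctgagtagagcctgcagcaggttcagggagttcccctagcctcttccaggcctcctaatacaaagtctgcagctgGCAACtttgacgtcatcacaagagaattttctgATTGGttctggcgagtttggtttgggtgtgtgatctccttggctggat
H2-Eb1: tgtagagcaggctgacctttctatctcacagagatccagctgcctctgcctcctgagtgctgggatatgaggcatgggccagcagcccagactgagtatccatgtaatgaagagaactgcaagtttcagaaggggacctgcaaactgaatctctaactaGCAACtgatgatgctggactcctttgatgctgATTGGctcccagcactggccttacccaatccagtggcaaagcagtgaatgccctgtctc

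H2-D1 and H2-Q6 held both class I cores, H2-Q10 the ISRE core alone and H2-Q2 neither, although the last 3 all rose in tumors. A match is a run of letters and not a shown binding site, and a missing match says only that these letters are not in the window.

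Among the genes that complete and load class I molecules, Tap1, a subunit of the peptide transporter, was the one that rose. It lay between 3.69 and 7.84 in livers (median 4.36) and between 5.03 and 19 in tumors (median 9.98). Liver 5 was the highest liver, 7 tumors exceeded it, and the difference was 1.03 (SE 0.23, limma adjusted p = 0.00372). Its partner subunit Tap2 had medians of 11.1 and 12.8 (difference 0.23, SE 0.21, limma adjusted p = 0.485), and Tapbp, which encodes tapasin, of 52.8 and 55.8 (difference 0.19, SE 0.21, limma adjusted p = 0.592). B2m, the light chain of every class I molecule, ranged from 342 to 1345 in livers (median 790) and from 583 to 2024 in tumors (median 1361). It did not pass (difference 0.72, SE 0.28, limma adjusted p = 0.0850), but passed without tumor 2 (difference 0.83, limma adjusted p = 0.0205), which held the lowest B2m level of any tumor.

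The wider class I pathway showed few changes. Of 10 genes of peptide supply, 0 passed (2 at an unadjusted p under 0.05, median difference -0.01). The immunoproteasome subunit Psmb9, whose gene shares a promoter region with Tap1, had medians of 4.99 in livers and 11.1 in tumors (difference 0.91, SE 0.32, limma adjusted p = 0.0536), while Psmb8 (difference 0.55, limma adjusted p = 0.281) and Psmb10 (difference -0.49, limma adjusted p = 0.202) gave no call. Of 9 assembly genes, 2 rose and 0 fell (median difference 0.32). These were the endoplasmic reticulum chaperone Hspa5, with medians of 342 in livers and 664 in tumors (difference 0.89, limma adjusted p = 0.0380), and the disulfide isomerase Pdia6, with 98.2 and 147 (difference 0.80, limma adjusted p = 0.0320). With 1 sample left out, Hspa5 did not pass in 9 of 18 fits and Pdia6 in 3. With no scaling neither passed (limma adjusted p = 0.361 and 0.431). Of 9 MHC-like class I genes outside the H2 region, 0 passed (2 unadjusted, median difference 0.13). Mr1, which presents vitamin B metabolites to MAIT cells, came closest (medians 2.30 and 4.92, difference 0.75, limma adjusted p = 0.0502). The lipid-presenting Cd1d1 (difference -0.22, limma adjusted p = 0.386) and the neonatal Fc receptor Fcgrt (difference -0.53, limma adjusted p = 0.167) gave no call.

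Neither transactivator passed. Nlrc5 lay between 3.36 and 9.60 in livers (median 6.36) and between 2.56 and 25.8 in tumors (median 6.13), with tumor 2 the highest (difference 0.11, SE 0.34, limma adjusted p = 0.860). Ciita reached at most 1.12 in livers and 4.36 in tumor 10, too low for a firm statement (difference 0.38, limma adjusted p = 0.423). Of 18 further regulators tested, 3 rose and 1 fell (median difference 0.14). Ifngr1, a chain of the interferon-γ receptor, lay between 3.76 and 5.60 in livers and between 10.31 and 54.1 in tumors. The lowest tumor was tumor 2, whose deposited value of 2 was below every liver (4 to 6), so the separation of the scaled values rests on its scaling factor (difference 2.11, SE 0.26, limma adjusted p = 6.70e-06). Its partner chain Ifngr2 rose from a median of 6.55 to 11.9 (difference 0.69, limma adjusted p = 0.00780) and the NF-κB subunit Nfkb1 from 7.33 to 11 (difference 0.51, limma adjusted p = 0.0153). With no scaling Ifngr2 and Nfkb1 did not pass (limma adjusted p = 0.368 and 0.587). Neither passed within E19 alone (0.0615 and 0.159) or E20 alone (0.208 and 0.157). For Nfkb1 the highest was tumor 2, at 3 deposited units against 6 to 12 in livers. Irf2, an interferon regulatory factor, fell from 19.4 to 11.5 (difference -0.66, limma adjusted p = 0.0175). It did not pass without liver 4 (limma adjusted p = 0.0612), without liver 6 (0.0516) or with no scaling (0.114). Irf1 (difference 0.30, limma adjusted p = 0.456) and the class II factor Rfx5 (difference 0.13, limma adjusted p = 0.724) did not pass.

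The class II genes varied widely between samples of a group. H2-Ab1, the β chain of the I-A molecule, ranged from 2.21 to 59.4 in livers (median 15.3) and from 14.7 to 147 in tumors (median 25). Tumors 10 and 5 were far above the others, liver 5 was the highest liver and liver 1 the lowest, and only 2 tumors exceeded every liver. The difference was 1.13 (SE 0.50, limma adjusted p = 0.121). H2-Aa, the α chain, ranged from 4.43 to 54.9 in livers (median 15.7) and from 15.5 to 157 in tumors (median 24.3), a difference of 1.01 (SE 0.47, limma adjusted p = 0.148). H2-Eb1, the β chain of I-E, ranged from 2.21 to 66.1 (median 16.2) and from 17.4 to 189 (median 30.4), a difference of 1.21 (SE 0.52, limma adjusted p = 0.116). H2-Ea, its α chain partner, which carries a deletion in C57BL/6 mice and is annotated as a pseudogene, was above 0 in a single liver. Cd74, the invariant chain that guards the class II groove, ranged from 6.64 to 157 in livers (median 38.6) and from 46.5 to 662 in tumors (median 73.1). Tumors 10 and 5 were again the highest and 3 tumors exceeded every liver (difference 1.44, SE 0.56, limma adjusted p = 0.0795). Without liver 5 all 4 genes passed, with differences of 1.53 for H2-Ab1 (limma adjusted p = 0.0319), 1.37 for H2-Aa (0.0465), 1.62 for H2-Eb1 (0.0334) and 1.86 for Cd74 (0.0244). Without liver 1, the lowest liver, the differences were smaller and none passed, at 0.70 for H2-Ab1 (limma adjusted p = 0.312), 0.70 for H2-Aa (0.324), 0.75 for H2-Eb1 (0.30) and 1.004 for Cd74 (0.206).

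**Figure D4:**
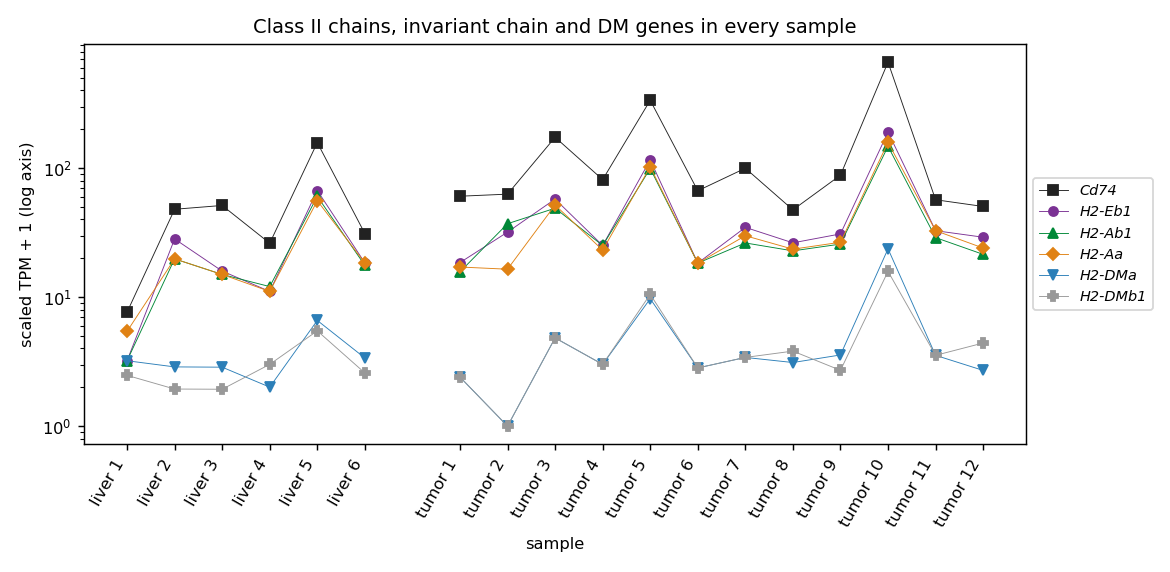
Scaled TPM + 1 on a log axis of Cd74, the class II chain genes H2-Eb1, H2-Ab1 and H2-Aa, and the DM genes in each liver and tumor. All 6 genes peak in tumor 10 (662 for Cd74) and are next highest in tumor 5, and liver 5 is the highest liver (157 for Cd74).

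H2-DMa and H2-DMb1 encode the 2 chains of DM, which exchanges the invariant chain fragment for peptide. Their medians were 2.05 and 1.53 in livers and 2.26 and 2.48 in tumors, both reached their highest level in tumor 10 (22.7 and 14.8), and neither passed (differences 0.21 and 0.49, limma adjusted p = 0.800 and 0.456). H2-DMb2 stayed at 2 deposited units or less, H2-Oa at 1 or less, and H2-Ob and H2-Eb2 at 0. Of 9 further class II processing genes tested, 2 rose and 0 fell (median difference 0.17). The lysosomal proteases Lgmn (medians 23.7 and 41.1, difference 0.91, limma adjusted p = 0.00658) and Ctsz (108 and 169, difference 0.59, limma adjusted p = 0.0227) rose, whereas Ctss, which cleaves the invariant chain (difference 0.23, limma adjusted p = 0.747), and Ctsl (difference -0.19, limma adjusted p = 0.640) did not pass. Ctsz did not pass in 2 of the 18 fits with 1 sample left out. With no scaling neither Lgmn nor Ctsz passed (limma adjusted p = 0.302 and 0.642).

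Markers of the cells that make class II are given beside these values, since in bulk tissue fewer cells of a type and less RNA per cell cannot be told apart. The summed level of 4 leukocyte markers (Ptprc, Laptm5, Coro1a, Cd53) was 14.9 to 26.6 in livers and 8.41 to 51.5 in tumors, highest in tumor 10. Of these 4, 0 passed. The sum over 8 macrophage and Kupffer cell markers was 45.1 to 130 in livers, highest in liver 5, and 10.16 to 95.9 in tumors, highest in tumor 5, with 8 tumors below every liver. Among 7 of them tested, the Kupffer cell genes Clec4f (difference -1.47, limma adjusted p = 0.0374) and Marco (difference -1.45, limma adjusted p = 0.0218) fell. Marco stood at 32 deposited units in liver 1 and at 1 to 3 in the other livers, and without liver 1 (and with no filter on low values) its difference was -0.89 (limma adjusted p = 0.0473). Clec4f did not pass in 8 of the 18 fits with 1 sample left out. The sum over 7 dendritic cell markers was 4.48 to 7.46 in livers and 2.54 to 10.31 in tumors, with Flt3 and Xcr1 at 0 in every sample. That over 7 B and plasma cell markers was 2.21 to 55.5 and 2.54 to 28.8, with Ms4a1 and Iglc2 among those at 0 everywhere. That over 7 T and NK cell markers was 0 to 3.76 and 0 to 12.2, with Ncr1 at 0 everywhere. For 5 markers of sinusoidal endothelium, which can also carry class II, the sum was 24.4 to 68.5 and 14.8 to 237, highest in tumor 2, and the median difference over the 5 genes was -0.15. Pecam1 rose (difference 1.15, limma adjusted p = 2.60e-04), and the other members did not pass, with differences of 0.47 for Lyve1, -0.15 for Stab1, -0.43 for Stab2 and -1.01 for Clec4g. For 6 hepatocyte markers the sum, of which Alb was the largest part, was 35970 to 45678 in livers and 32681 to 68369 in tumors. Apoa1 rose (difference 0.91, limma adjusted p = 0.0142) and Tat fell (difference -1.62, limma adjusted p = 0.00481). Alb (difference 0.57, limma adjusted p = 0.107) and Cps1 (-1.88, 0.105) did not pass. Such sums follow their most abundant marker. Ighm alone gave 47.9 of the B and plasma cell sum in liver 2, and Lyve1 144 of the endothelial sum in tumor 2. The part of these cell markers in the differences of the MHC genes was not tested.

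How members varied with each other across tumors was examined in 21 pairs of genes over 11 mice, with tumors 11 and 12 averaged (100000 permutations, two-sided, adjusted over the 21 pairs). The points share each tumor's scaling factor, and 6 pairs passed. H2-K1 followed H2-D1 (Pearson r = 0.91, permutation p = 2.00e-04, adjusted 0.00410; Spearman rho = 0.95, adjusted 4.20e-04). The relation remained at r = 0.83 without tumors 1 and 8, the 2 farthest from the median of H2-K1, and was 0.95 within the 7 E19 tumors. H2-K1 also followed Tap1 (r = 0.74, permutation p = 0.0109, adjusted 0.0382; rho = 0.75, adjusted 0.0521), with r = 0.81 without those tumors. For H2-K1 with B2m, r was 0.62 (permutation adjusted p = 0.0899), with Psmb9 0.60 (permutation adjusted p = 0.104), with Tap2 0.57 (0.117) and with H2-Q10 0.56 (0.117). With Nlrc5 it was -0.06 (permutation adjusted p = 0.861; 0.77 within E19, permutation p = 0.0586), where tumor 2 had the highest Nlrc5 level. With Tapbp, Irf1 and H2-Ab1, r lay between 0.32 and 0.48 and none passed.

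H2-Ab1 followed Cd74 (r = 0.93, permutation p = 3.90e-04, adjusted 0.00410; rho = 0.82, adjusted 0.0337). Without tumors 5 and 10, which lay farthest from the median, r was 0.65 (permutation p = 0.0646). The other H2-Ab1 pairs that passed rested on those tumors. They were Cd68, a macrophage marker (r = 0.84, adjusted permutation p = 0.0225; 0.24 without them), H2-DMa (r = 0.79, adjusted permutation p = 0.0358; 0.03 without them) and the leukocyte marker Ptprc (r = 0.75, adjusted permutation p = 0.0371; 0.37 without them). By Spearman's rho none of these 3 passed (rho = 0.64, 0.70 and 0.52, permutation adjusted p = 0.138, 0.0835 and 0.204). H2-Ab1 with Ciita (r = 0.66), Itgax (0.63), Adgre1 (0.49) and Stab2 (-0.64) did not pass, nor did H2-Q10 with Alb (0.23) or with Hnf4a (-0.14), a hepatocyte transcription factor. E20 held 5 tumors, too few for a separate value.

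**Figure D5:**
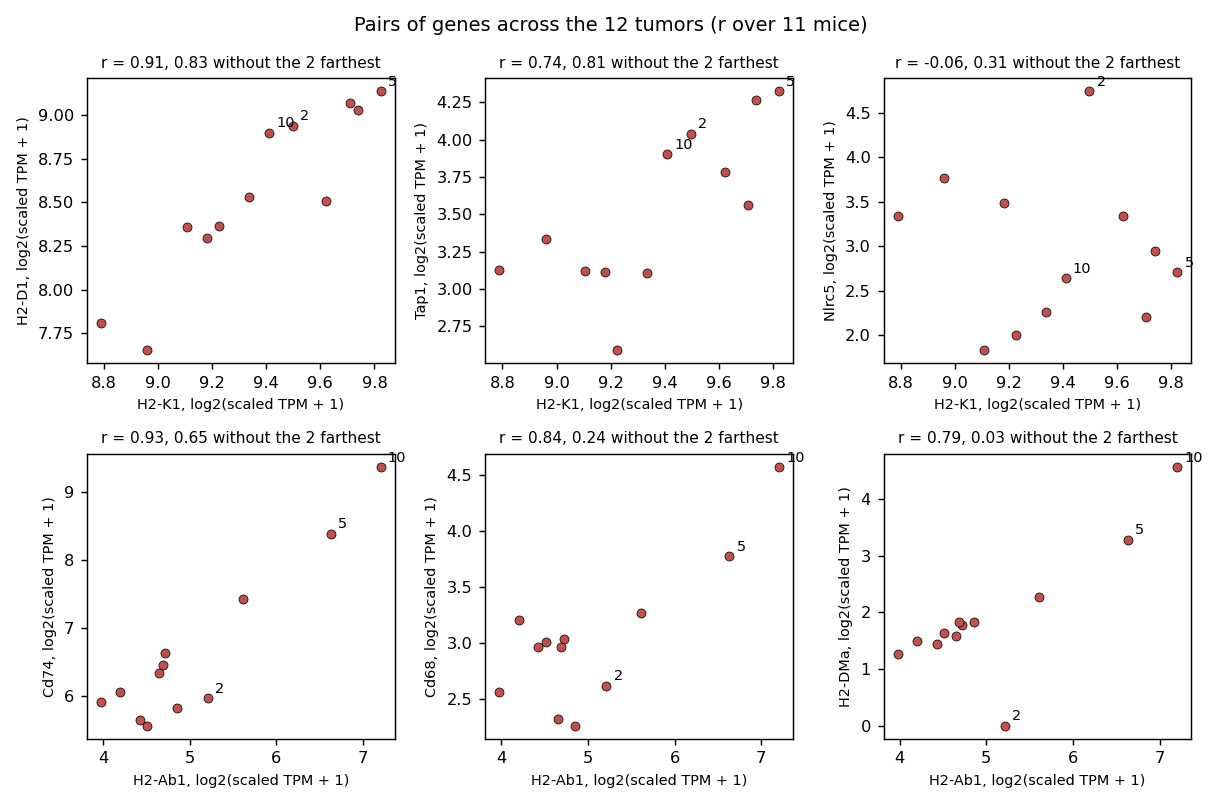
Pairs of genes across the 12 tumors, both axes in log2(scaled TPM + 1), each point 1 tumor, with tumors 2, 5 and 10 numbered. H2-K1 and H2-D1 keep their relation without the 2 farthest tumors (r = 0.91 and 0.83), whereas H2-Ab1 with Cd68 goes from 0.84 to 0.24 and H2-Ab1 with H2-DMa from 0.79 to 0.03.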

How the data were processed

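The deposited table held 1 column per sample. Per the study's methods the authors checked reads with FastQC, used GRCm38 (mm10) and quantified TPM with Salmon; the study also calls the values raw counts, but the deposited whole numbers summed to 835144 to 907513 in every sample and were treated as a normalized score (TPM rounded by the authors), not as counts. Read depth was unknown, so no counting error could be given. Groups came from the sample labels. Members and gene lists were chosen with earlier results of these data known. Values were scaled by trimmed means of M values (30% of M and 5% of A values trimmed), genes had to reach 1 in 6 or more samples, and log2(value + 1) was tested with limma 3.58.1 (R 4.3.3, trend, Benjamini-Hochberg over 11708 genes, threshold 0.05), all 18 samples in 1 fit. Every tested member is named, with up to 4 passing genes per pathway list plus a fixed set, of which 1 gene is not reported here. The fit was tested on simulated data. Alternatives changed scaling, filter, pseudocount (0.1 and 5), covariates, weights and samples. Separate cultures or litters are not stated, so p-values measure the spread between these samples.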

Additional observations from a re-analysis of the deposited data

Results flagged for a closer look

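Gaps between livers were taken on scaled TPM, not on the log scale of the other tests. Dixon's 95% critical value, passed by chance in about 1 in 20 genes, is meant for normally spread values. That rate need not hold for skewed values such as these, and genes of 1 sample are not independent. In the 6 livers, 12 of the 32 members tested had a highest sample whose gap to the next, divided by the range, exceeded the critical value. The share of all genes that pass this rule was not computed, so the count cannot be read as a trait of MHC genes. Liver 5 was that sample for 10 members: for H2-Bl (gap share 0.779, 13.4 against 3.76 in the next liver), H2-Q7 (0.756, 48.2 against 27.3), Tap1 (0.744, 7.84 against 4.75), H2-Aa (0.715, 54.9 against 18.8), H2-Ab1 (0.710, 59.4 against 18.8), Cd74 (0.709, 157 against 50.4), H2-DMa (0.702, 5.60 against 2.38), H2-DMb1 (0.695, 4.48 against 2.01), H2-Q8 (0.652, 8.96 against 4.43) and H2-Q9 (0.628, 33.6 against 15). Its macrophage and Kupffer cell marker sum was also the highest of the livers, and the part of this in the values was not tested. Liver 1 was highest for H2-M3 (0.770, 2.21 against 1.12) and liver 2 for H2-T27 (0.654, 2.82 against 1.58), both levels of a few units where rounding to whole TPM sets the steps.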

How the results depend on the processing

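Of the 12 members that rose, H2-Q1, H2-Q2 and H2-T-ps kept the call in every setting that tested them (33, 32 and 29 settings). In the 33 settings 0 members fell. H2-Q2 and H2-T-ps met the filter through the tumors alone, and a gene below 1 in all tumors needed all 6 livers at 1 or more. With no filter, H2-Ea (difference -0.33), H2-DMb2 (-0.29), H2-T24 (-0.18), H2-Oa (0.075), H2-T26 (0.075) and H2-M5 (0.064) were tested too, and none passed. The number of members higher was 4 of 34 tested with no scaling, with 670 of 13309 genes higher (1341 called in all). There the median of all genes was -0.18 against -0.07, and H2-Q10 was among the calls lost. With sample quality weights 22 of 32 members were higher, with 2333 of 11708 genes higher (4703 called in all). Within E19 it was 2 of 27, with 786 of 10168 genes higher (1329 called in all). Within E20 it was 6 of 26, with 289 of 10312 genes higher (404 called in all). Without tumor 2 and liver 5 together, a setting chosen after seeing the data, it was 19 of 33, with 1626 of 12116 genes higher. With 1 sample left out, 8 to 19 members were higher (1649 to 3201 genes called in all), 19 without liver 5 and 8 without liver 4. With livers and tumors 1 to 6, a replicate block gave 16 of 26 members, with 672 of 10584 genes higher (1369 called in all). No block gave 8 of 26, with 638 of 10584 genes higher (1214 called in all). Same-numbered samples correlated at 0.18 on average (3 of 6 pairs over 0.1) and different-numbered samples at -0.035 (9 of 30 over 0.1). With 6 pairs these values cannot decide whether the numbers pair samples. The liver and the tumor of each number came from different mice. The cause of these changes was not tested. In none of the settings did a member that rose change direction.

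Differences that passed nowhere changed sign for H2-DMa (-0.026 with the tag as covariate, -0.45 within E20, -0.031 with the block and without it over the same samples, -0.028 to 0.42 with 1 sample left out, the lowest without tumor 10, -0.19 without tumors 5 and 10), H2-M2 (-0.10 to 0.19 with 1 sample left out, the lowest without liver 4), H2-M3 (0.16 with weights, 0.22 within E19, -0.095 to 0.076 with 1 sample left out, the highest without liver 1, 0.057 without tumor 2, 0.036 without tumor 2 and liver 5), Nlrc5 (-0.065 with no scaling, -0.094 with weights, -0.036 to 0.24 with 1 sample left out, -0.026 without liver 5, -0.036 without tumor 2, -0.21 without tumor 2 and liver 5), Tap2 (-0.12 within E19) and Tapbp (-0.0016 with no scaling). Correlated pairs numbered 19 with no scaling, 10 with upper-quartile scaling, 2 by Spearman's rho and 2 to 12 with 1 tumor left out (12 without tumor 2; 2 without tumor 3, 5 or 10). Whole-number TPM limits members below about 5 units, more so in tumor 2.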
